A study of Mus musculus with 4 samples.

Results

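Shared gene-desert sites are stretches of open chromatin that lay far from any protein-coding gene and were called in hematopoietic stem cells (HSCs) both with and without the Mediator subunit Med23. Open chromatin was mapped by ATAC-seq, where a transposase cuts and tags the DNA it can reach, in 5000 sorted bone marrow cells per sample from adult C57BL/6 mice. The WT group had 2 samples of floxed mice without cre (genotype labelled Med23floxp/flowp), and the KO group had 2 samples of mice that carried Mx1-cre on the same floxed background. Mx1-cre is switched on by interferon in many tissues besides HSCs, and the study induced it with poly(I:C), an agent that itself provokes an interferon response. The cells were sorted as LSK CD150+CD34-CD48- by the labels, while the study's methods name LSK CD150+CD48- without CD34. Only 1 peak list exists per genotype, named by the labels of both its samples, and the sources do not say if their reads were pooled. KO and WT are thus compared list against list, with no spread between replicates to test a difference against.

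The sites were chosen from the peaks themselves. A member was an autosomal KO peak that shared at least 1 bp with a WT peak, whose KO summit lay in no protein-coding gene body of GENCODE M21 and more than 100 kb from the nearest protein-coding start site. Presence in both lists and the place of the KO summit thus chose the members and are no finding about them. The rule kept 2399 of the 28978 shared KO peaks on the 19 autosomes, which was 8.28% (95% Wilson interval 7.97 to 8.60). All Wilson intervals here treat peaks as independent draws and hold counting error alone, since the peaks of a list are not replicates. The other shared peaks were 11657 promoter peaks with a summit within 1000 bp of a coding start, 8689 peaks elsewhere in gene bodies and 6233 intergenic peaks within 100 kb of a coding start.

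The 3 members nearest to the 100 kb limit had Irx4, Kcnc2 and Trat1 as their nearest coding genes, at 100.017, 100.023 and 100.041 kb. The summit pileup, the number of reads stacked at the summit, was 28 in KO and 28 in WT at the Irx4 site, 18 and 11 at the Kcnc2 site, and 69 and 60 at the Trat1 site. The 3 shared intergenic peaks that just missed the limit lay 99993 bp from Cypt12 (11 in KO, 11 in WT), 99930 bp from Ubl3 (15 and 12) and 99929 bp from Supt20 (14 and 17). In all, 81 members had a summit within 5 kb of the limit.

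Much of a mammalian genome is gene desert, long intervals without protein-coding genes. Open chromatin in such intervals includes enhancers, which bind transcription factors and can act on a promoter across very long distances by looping, insulator sites held by the zinc-finger protein CTCF, and promoters of noncoding RNAs. Mediator is the complex through which factors bound at enhancers contact RNA polymerase II, and Med23 is one of its tail subunits. In blood stem cells, the factors RUNX1, TAL1, GATA2, PU.1 and MEIS1 bind many such distal elements.

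The labelled cell type was checked at promoters. Of 12 stem and progenitor genes, 9 had a promoter peak in both lists, among them Mecom (summit pileup 56 in WT, 60 in KO), Meis1 (64 and 68) and Tal1 (47 and 52), while Ly6a, Slamf1 and Procr had none in either list. Of 11 genes of mature cells, 10 had no promoter peak in either list, among them the B-cell genes Cd79a and Ms4a1, and the exception was the platelet gene Pf4 (46 in WT, 49 in KO). Med23 had a promoter peak in both lists (64 in WT, 85 in KO), which says nothing about a deletion inside the gene. The total number of reads per list is unknown.

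The sequences below are 200 bp windows centred on the KO summit, read from the plus strand of GRCm38 (mm10). The first set shows members of high pileup or extreme KO to WT ratio, 1 of the 5 most remote sites, with a CTCF match, and the strongest sites near Klf6 and Ikzf2, which were added after their values were seen. Capitals mark matches on either strand to short consensus motifs of blood factors, namely AGATAA for GATA factors, TGTGGT for RUNX, GAGGAAGT for PU.1, TTGCNNAA for C/EBP, TGANTCA for AP-1, CAGATG for the TAL1 E-box, TGACAG for MEIS, the interferon-stimulated response element (ISRE, a pair of GAAA words with any 2 bases between them) and the CTCF core motif. A match is a description of the letters and not a bound site.
Ndufa4 site, chr6:11594064-11594263, 168 reads in KO and 185 in WT, GATA then RUNX then MEIS: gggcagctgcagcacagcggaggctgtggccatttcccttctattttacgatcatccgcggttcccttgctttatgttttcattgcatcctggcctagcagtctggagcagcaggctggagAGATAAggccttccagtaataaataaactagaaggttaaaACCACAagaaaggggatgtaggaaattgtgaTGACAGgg
Akr1e1 site, chr13:4771566-4771765, 159 in KO and 133 in WT, AP-1 on both sides of RUNX: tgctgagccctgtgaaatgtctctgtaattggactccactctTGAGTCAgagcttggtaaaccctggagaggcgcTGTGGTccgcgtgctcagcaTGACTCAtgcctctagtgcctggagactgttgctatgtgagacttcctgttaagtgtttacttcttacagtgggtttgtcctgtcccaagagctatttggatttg
Klf6 site, chr13:5592575-5592774, 129 in KO and 113 in WT, ISRE then GATA: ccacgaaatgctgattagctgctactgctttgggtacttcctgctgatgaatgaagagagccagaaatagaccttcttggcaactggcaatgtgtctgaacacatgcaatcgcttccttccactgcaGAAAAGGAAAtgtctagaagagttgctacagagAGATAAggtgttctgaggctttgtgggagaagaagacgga
Ikzf2 site, chr1:69513642-69513841, 62 in KO and 32 in WT, GATA on both strands: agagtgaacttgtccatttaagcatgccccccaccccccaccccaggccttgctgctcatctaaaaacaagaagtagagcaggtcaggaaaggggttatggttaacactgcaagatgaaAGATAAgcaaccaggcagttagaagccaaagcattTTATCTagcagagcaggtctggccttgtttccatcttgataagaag
G6pd2 site, chr5:59996812-59997011, 32 in KO and 16 in WT, PU.1 then CTCF: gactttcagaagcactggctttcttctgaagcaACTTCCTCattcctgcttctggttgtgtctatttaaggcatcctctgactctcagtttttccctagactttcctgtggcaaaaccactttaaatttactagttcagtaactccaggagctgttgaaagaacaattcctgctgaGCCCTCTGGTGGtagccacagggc
Plscr5 site, chr9:91988359-91988558, 71 in KO and 22 in WT, 2 TAL1 E-boxes then RUNX: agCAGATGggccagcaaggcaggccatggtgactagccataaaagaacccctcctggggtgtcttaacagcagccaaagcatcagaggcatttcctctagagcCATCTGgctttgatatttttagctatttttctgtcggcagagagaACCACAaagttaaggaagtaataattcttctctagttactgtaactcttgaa
Mad2l1 site, chr6:66347417-66347616, 31 in KO and 9 in WT, 4 RUNX matches and 1 GATA: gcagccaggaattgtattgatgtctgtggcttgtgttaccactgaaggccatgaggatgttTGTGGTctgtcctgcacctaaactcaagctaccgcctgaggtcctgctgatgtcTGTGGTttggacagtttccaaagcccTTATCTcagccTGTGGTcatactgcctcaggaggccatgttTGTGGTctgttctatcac
Mctp2 site, chr7:71961001-71961200, 17 in KO and 49 in WT, PU.1 then RUNX then C/EBP: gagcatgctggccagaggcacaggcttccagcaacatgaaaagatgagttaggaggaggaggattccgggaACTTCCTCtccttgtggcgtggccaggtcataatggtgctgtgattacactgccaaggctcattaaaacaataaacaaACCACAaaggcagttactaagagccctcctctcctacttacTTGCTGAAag

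Some of the most accessible members shared sequence with each other. The windows of the Mettl4, Zfp97 and Zfp960 sites, which were among the 6 of highest pileup, held a common run of 14 bases that was found by comparing them after their values were seen. They are shown with only that run in capitals.
Mettl4 site, chr17:94864770-94864969, 220 in KO and 150 in WT: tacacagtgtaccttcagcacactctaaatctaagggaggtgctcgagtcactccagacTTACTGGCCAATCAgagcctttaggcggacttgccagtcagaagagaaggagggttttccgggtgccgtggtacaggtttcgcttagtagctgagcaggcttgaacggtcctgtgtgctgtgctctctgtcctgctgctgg
Zfp97 site, chr17:17234578-17234777, 181 in KO and 173 in WT: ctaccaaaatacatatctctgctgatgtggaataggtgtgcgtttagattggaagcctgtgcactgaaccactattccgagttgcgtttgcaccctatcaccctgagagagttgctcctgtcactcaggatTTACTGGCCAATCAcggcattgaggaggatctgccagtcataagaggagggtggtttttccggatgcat
Zfp960 site, chr17:16951310-16951509, 185 in KO and 148 in WT: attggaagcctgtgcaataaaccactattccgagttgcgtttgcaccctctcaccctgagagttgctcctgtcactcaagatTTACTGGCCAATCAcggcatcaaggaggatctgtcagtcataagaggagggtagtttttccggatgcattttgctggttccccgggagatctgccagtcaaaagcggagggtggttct
The run occurred 35 times on the autosomes, 14 of them inside a shared peak and 9 in gene desert. It was present in the 400 bp summit window of 12 of the 28978 shared peaks (0.0414%) and of 3 of the 2399 members (0.125%). Those 3 members are the sites from which the run was taken, so the members' share follows from the choice. Pileups at the 12 peaks ran from 33 to 220 in KO, and 2 of the 12 were promoters, those of Gm15446 (168 in KO, 108 in WT) and of the zinc-finger gene Zfp932 (123 and 96). The Mettl4 and Zfp97 windows also held a stretch of 50 bases found in another shared peak, so reads there may be split between copies.

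Members were sparse in the ground they covered. Autosomal DNA that met the distance rule came to 737 Mb of 2396 Mb (30.8%) in 1747 stretches, and it held 3.26 shared peaks per Mb. The rest of the autosomes held 16.0 shared peaks per Mb, or 8.99 without promoters. Density differed among chromosomes, from 2.06 per Mb of gene desert on chromosome 8 (88 members) to 5.02 on chromosome 13 (194 members) and 4.73 on chromosome 10 (182 members). Distances to the nearest coding start had a median of 198 kb (quartiles 141 and 320), and 285 members lay beyond 500 kb and 56 beyond 1 Mb.

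Members came in loose groups. The median distance to the next member was 45.03 kb, 1593 members had another within 100 kb and 432 had one within 10 kb, while 179 had none within 1 Mb. They fell to 1081 nearest coding genes, 530 with a single site and 110 with 5 or more. Only 6 members were nearest to an olfactory or vomeronasal receptor gene, families that form large arrays of genes. In all, 1895 members (79.0%, 77.3 to 80.6) lay in no annotated gene of any kind, 461 (19.2%, 17.7 to 20.8) in a long noncoding RNA (lncRNA) and 29 in a pseudogene. A lncRNA start site lay within 1 kb of 145 summits (6.04%).

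Levels resembled those of other distal sites, with the same medians in KO. The KO pileup of members had a median of 19 reads (quartiles 13 and 28, range 6 to 573) and the WT pileup a median of 17 (12 and 26, range 6 to 651). Intergenic sites within 100 kb had medians of 19 and 18. The authors' fold enrichment over local background had a median of 8.00 in KO and 6.97 in WT at members, and of 7.58 and 6.58 at the nearer intergenic sites, beside median local backgrounds at members of 1.42 reads in KO and 1.57 in WT. KO peaks of members were 579 bp wide at the median and WT peaks 594 bp. The KO and WT summits lay a median of 40 bp apart, and 77.4% lay within 100 bp of each other. Overlap of the KO and WT peaks was part of the rule, and the share was 71.4% at promoters, 74.9% in gene bodies and 73.7% at nearer intergenic sites.

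Whether a gene-desert KO peak had a WT partner followed its pileup, as it did elsewhere. Of all 3330 gene-desert KO peaks 72.0% (70.5 to 73.5) were overlapped by a WT peak, compared with 70.5% of peaks inside gene bodies, 73.1% of nearer intergenic peaks and 93.8% of promoters. At KO pileups of 6 to 11 reads the gene-desert share was 42.4% (39.4 to 45.4), and it was 72.6% at 12 to 16 reads, 83.8% at 17 to 23, 95.2% at 24 to 39 and 99.7% at 40 or more. At the lowest pileups nearer intergenic peaks stood at 43.6% and promoters at 65.1%. The plot of shares by pileup shows the gene-desert interval overlapping that of nearer intergenic peaks in every pileup group.

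**Figure D1:**
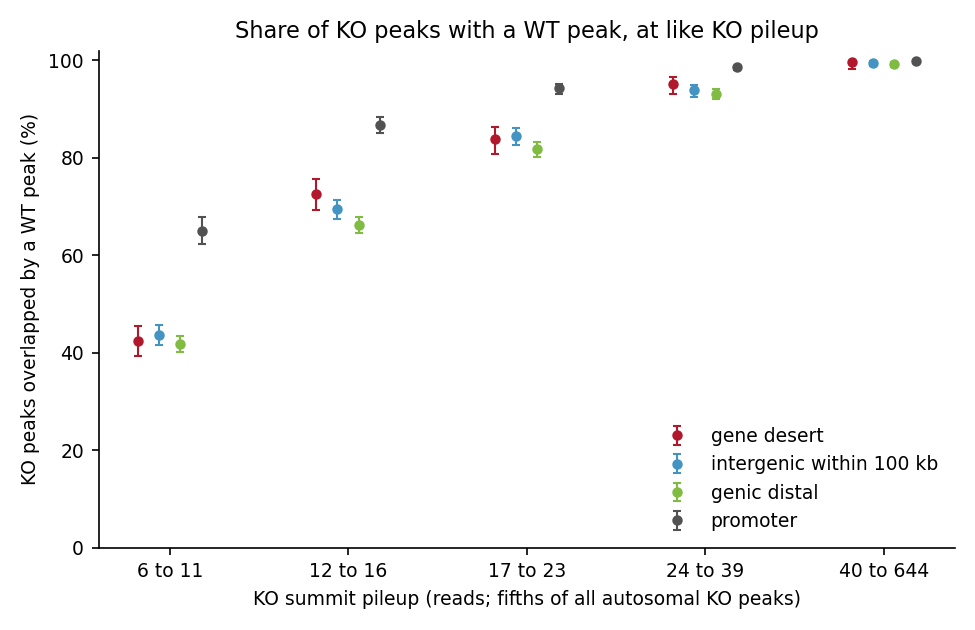
Share of autosomal KO peaks overlapped by a WT peak (y axis, percent) in 5 groups of KO summit pileup in reads (x axis), for gene-desert, nearer intergenic, gene-body and promoter peaks. Points are shares and bars 95% Wilson intervals; the gene-desert share rose from 42.4% in the lowest group to 99.7% in the highest, and promoters were higher in the first 4 groups.

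The sequence under the summits was poorer in GC and in CpG than at other sites. The GC content of the 200 bp summit window had a median of 47.0% (quartiles 42.5 and 51.5), against 51.0% at nearer intergenic sites and 65.5% at promoters. CpG-rich windows, with at least 50% GC and an observed over expected CpG of at least 0.6, made up 4.46% of members (3.70 to 5.36), and 0.542% of windows 1 kb from the same summits. Summits were in annotated repeats less often than the bases beside them. A repeat held the summit of 215 members (8.96%, 7.88 to 10.2), while 24.3% of the bases 1 kb away from those summits (23.1 to 25.5) and 38.5% of all gene-desert bases were masked. The members' share was above that of the other shared classes, which was 3.48% at promoters, 7.38% (6.85 to 7.95) in gene bodies and 8.10% (7.45 to 8.81) at nearer intergenic sites. The gene-body and nearer intergenic intervals both overlapped that of the members. Reads that map to many places are hard to align, and the part of mapping in these differences was not tested.

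Motifs of blood factors were denser under the summits than beside them. RUNX matches, the commonest, lay in 710 member windows (29.6%, 27.8 to 31.5) and in 13.4% of windows 1 kb away. PU.1 matches lay in 9.05% (7.96 to 10.3) and in 1.19% of the flanks, and CTCF matches in 5.17% (4.35 to 6.13) and in 0.417% of the flanks. By the ratio of window to flank these were the most concentrated motifs, CTCF at 12.4-fold and PU.1 at 7.61-fold. AP-1 (12.05% against 6.61%), ISRE (7.88% against 3.33%), MEIS (16.0% against 12.9%) and the SP/KLF box GGGCGGGG (2.38% against 1.00%) also had intervals clear of their flanks. GATA (14.5% against 13.4%), the TAL1 E-box (16.5% against 14.9%) and C/EBP (10.96% against 9.52%) did not, and nor did the ETS motif CCGGAAGT, which had 11 matches in all.

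Over all 28978 shared peaks, whose windows are mostly richer in GC, the shares were 19.5% for RUNX, 6.53% for PU.1, 5.11% for CTCF, 7.58% for AP-1, 4.23% for ISRE, 13.5% for MEIS, 8.04% for GATA, 11.6% for the TAL1 E-box, 7.32% for C/EBP, 13.2% for SP/KLF and 2.82% for ETS. Matches of different motifs overlapped in 45 member windows (1.88%), most often CTCF with the TAL1 E-box, in 10 windows. A member window held no motif in 594 cases (24.8%), 1 kind in 39.3%, 2 kinds in 24.6% and 5 kinds in 6 cases. Windows with CTCF held at least 1 of the GATA, RUNX, ETS, PU.1 and TAL1 motifs in 39.5% of cases (31.4 to 48.3, 49 of 124), and windows without CTCF in 55.2% (53.1 to 57.2). The blood-factor motifs were thus less frequent beside CTCF, with intervals that did not overlap.

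**Figure D2:**
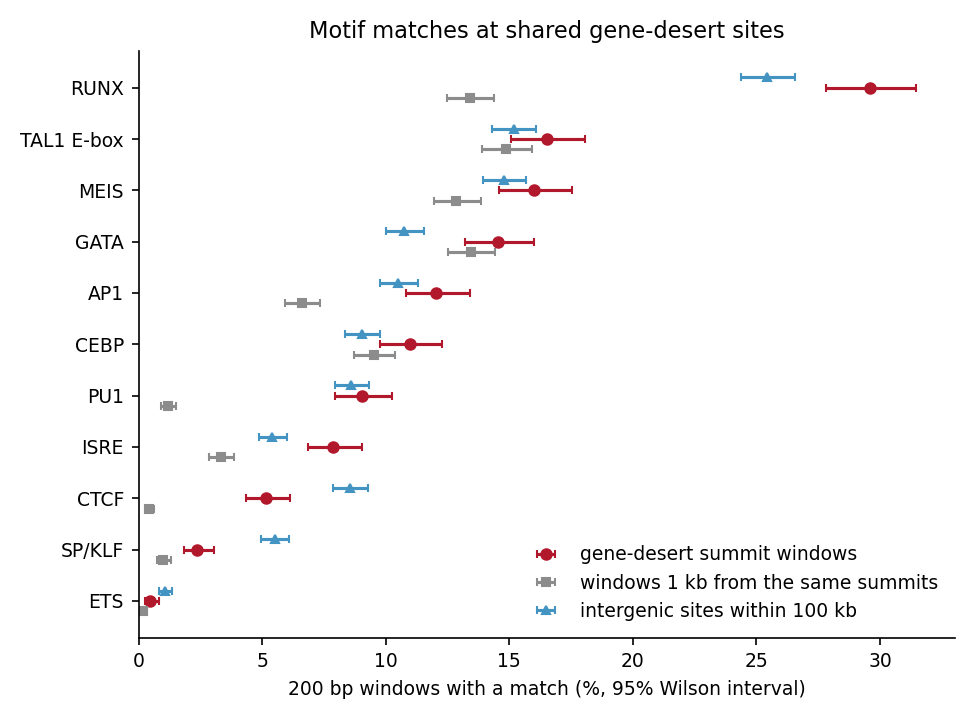
Share of 200 bp windows with a match to each of 11 motifs (x axis, percent) at gene-desert summits, in windows 1 kb from the same summits, and at intergenic sites within 100 kb of a coding start. Points are shares and bars 95% Wilson intervals; RUNX stands at 29.6% under gene-desert summits against 13.4% in the flanks, and CTCF at 5.17% is below the nearer intergenic sites at 8.55%.

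Gene-desert sites had fewer CTCF matches than nearer intergenic sites, also where GC was low, but about as many as gene-body sites. CTCF matches were in 5.17% of members and in 8.55% of nearer intergenic windows (7.88 to 9.27). In windows of 24.5 to 47.0% GC the CTCF shares were 4.54% (3.52 to 5.83) and 8.81% (7.60 to 10.2), in the middle GC group 5.97% (4.48 to 7.92) and 7.78% (6.70 to 9.02), and in the highest 5.67% (3.80 to 8.36) and 9.02% (7.93 to 10.2). CTCF was therefore lower at members than at nearer intergenic sites at each GC level, with separate intervals only in the lowest. Gene-body sites were close to members, at 5.05% (4.61 to 5.53) in all and 4.52% (3.82 to 5.34) in the lowest GC group. GATA was in 14.5% of members and 10.7% of nearer intergenic windows, but at 24.5 to 47.0% GC the shares were 18.2% and 17.4%. The same held for RUNX, with 33.3% and 31.2% there, and for ISRE, with 10.2% and 9.30%. In the highest GC group GATA remained separate, at 9.11% (6.68 to 12.3) and 5.19% (4.37 to 6.16).

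RUNX and PU.1 matches were most frequent at the summit and CTCF matches beside it. CTCF matches were centred 20 to 40 bp before the summit in 1.38% of members and 20 to 40 bp after it in 1.67%, and in each 20 bp next to the summit in 0.0834%. The letters of a CTCF match were therefore seldom at the point of highest pileup. RUNX was highest in the 20 bp after the summit, at 4.84%, and PU.1 in the 20 bp before it, at 1.83%. GATA matches had no such peak, with 1.04% and 1.88% in the bins next to the summit and at most 2.29% anywhere within 500 bp.

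**Figure D3:**
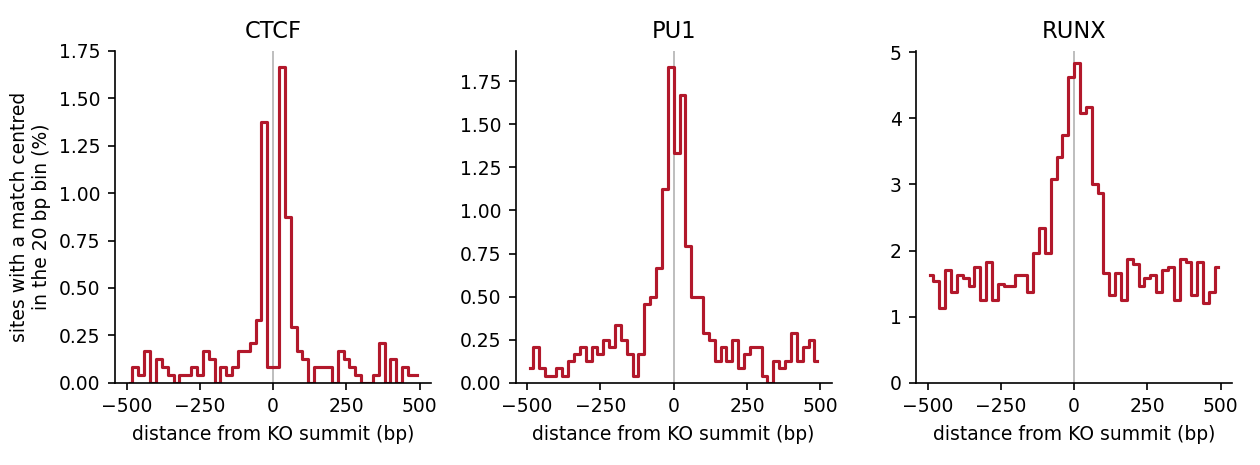
Share of gene-desert sites (y axes, percent) with a CTCF, PU.1 or RUNX match centred in each 20 bp bin, by distance from the KO summit in bp (x axes). CTCF shows a peak on either side of the summit, of 1.38% and 1.67%, with 0.0834% in both bins between them, whereas PU.1 and RUNX are highest at the summit itself.

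Sites farther from genes had more ISRE matches and similar levels. In members more than 500 kb from a coding start, CTCF matches were in 3.16% of windows (1.67 to 5.89), the TAL1 E-box in 21.1% (16.7 to 26.2) and ISRE in 12.3% (8.96 to 16.6). In those at 100 to 150 kb the shares were 6.12% (4.59 to 8.12) for CTCF, 14.3% (11.95 to 17.1) for the E-box and 6.40% (4.83 to 8.43) for ISRE. The ISRE intervals of the nearest and farthest groups did not overlap, and those of CTCF and the E-box did. Median GC was 48.5% in the nearest group and 43.5% in the farthest, and the part of base composition in these shares was not tested. Median KO pileup was 19 in both groups.

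The KO to WT ratio was computed for the 2361 members whose KO and WT peaks matched one to one, as the log2 ratio of pileups, each divided by the genome-wide background of its list. The KO and WT values were part of what chose the members, so the ratios are a description. Their median was 0.21 on the log2 scale, or 1.16-fold, with quartiles of −0.09 and 0.50, and the median of all 28119 shared pairs was 0.17, or 1.12-fold. Promoters had a median of 0.09, gene-body sites 0.22 and nearer intergenic sites 0.21. With the authors' fold enrichment in place of pileup the order turned, with 0.24 at members, 0.26 over all shared pairs, 0.28 at promoters, 0.25 at gene-body sites and 0.24 at nearer intergenic sites. On the pileup scale the members' median was close to that of other distal sites, with 66.5% of members above 0. Among members, the median was 0.19 at summed pileups of 13 to 30, 0.17 at 31 to 45, 0.25 at 46 to 75 and 0.29 at 76 or more, against 0.09, 0.16, 0.17 and 0.17 in all other shared pairs of those pileups. By the authors' fold enrichment these medians were 0.14, 0.20, 0.30 and 0.37 at members, against 0.13, 0.20, 0.27 and 0.36. The other pairs include promoters, and the other distal classes were not compared at like pileup.

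Single members departed from the common ratio in both directions. At least 1.5-fold above the median of all shared pairs were 281 members (11.9%, 10.7 to 13.3), where 7.56% of all pairs were, and at least 1.5-fold below it 204 members (8.64%, 7.57 to 9.84), where 7.92% of all pairs were. Of these 485 members 57.9% were on the higher side. Other distal classes were nearer to the members than all pairs were on the higher side. Gene-body pairs were higher in 10.7% (10.0 to 11.4) and lower in 7.62%, and nearer intergenic pairs in 9.61% (8.89 to 10.4) and 8.27%. With the authors' fold enrichment in place of pileup, 103 members were higher (4.36%, all pairs 3.13%) and 185 lower (7.84%, all pairs 6.04%), so that 35.8% of 288 were on the higher side. Among pairs that reached a −log10 q of 10 in KO and in WT, 79 were higher (7.36%, all pairs 4.16%) and 41 lower (3.82%, all pairs 3.92%), or 65.8% of 120 on the higher side. Which direction prevailed therefore turned with the scale.

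Counting error alone is wide at these depths. The exact binomial 95% interval of a ratio lay wholly above the median of all pairs at 70 members (2.96%, 2.35 to 3.73; all pairs 1.91%) and wholly below it at 32 (1.36%, 0.96 to 1.91; all pairs 1.54%). This interval lay above at 2.32% (2.02 to 2.67) of gene-body pairs and 2.00% of nearer intergenic pairs, and below at 0.92% and 1.08%. At summed pileups of 76 or more it lay above at 24 of 305 members (7.87%) and below at 10 (3.28%), against 3.29% and 2.68% of all other pairs of that pileup. Those other pairs include promoters, and the other distal classes were not set apart at that pileup. Members with a PU.1 match had a median ratio of 0.33 (quartiles 0.03 and 0.62, 215 pairs) and those without 0.20 (2146 pairs). AP-1 members had a median of 0.13 (286 pairs), GATA members 0.18 and CTCF members 0.22. These differences by motif were not tested.

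**Figure D4:**
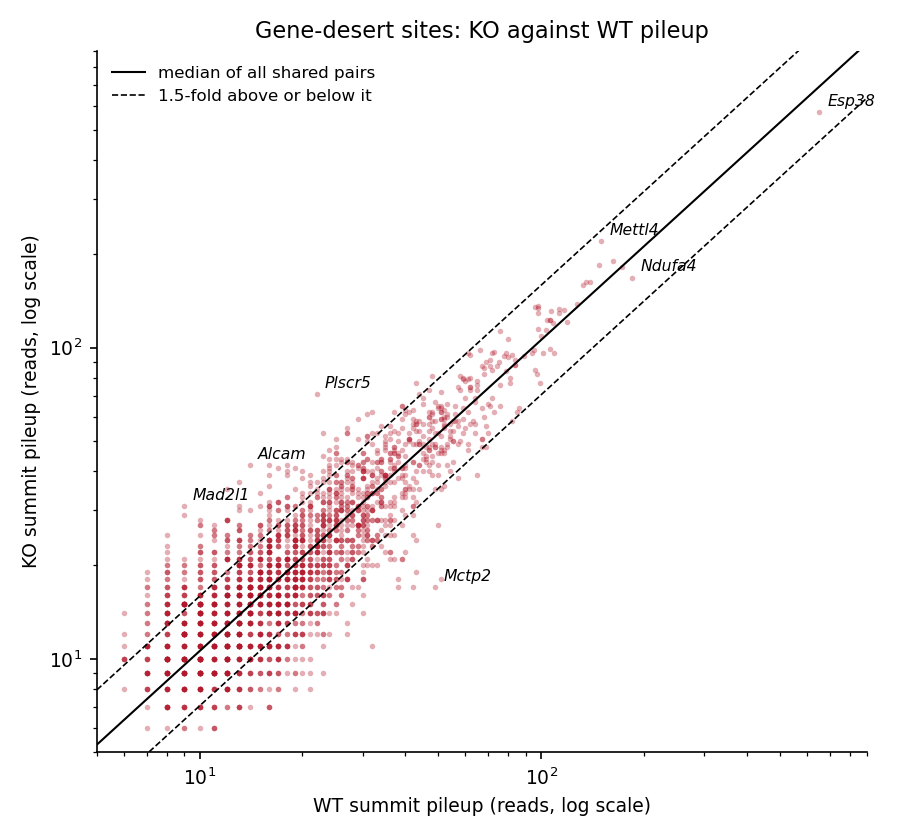
KO against WT summit pileup in reads, both axes on a log scale, for the 2361 one-to-one gene-desert pairs, each a point. The solid line is the median ratio of all shared pairs and the dashed lines lie 1.5-fold above and below it; Plscr5 at 71 against 22 reads stands above the band, Mctp2 at 17 against 49 below it, and Ndufa4 at 168 against 185 within it.

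The 10 members of highest summed pileup were led by a site that is unlike the rest. At chr17:39843140-39848720, in the lncRNA Gm26917 and 106 kb from Esp38, the pileup was 573 in KO and 651 in WT over a local background of 157 and 215 reads, so the authors' fold enrichment was only 3.63 and 3.02. This peak was 5581 bp wide with 72.0% GC under its summit. Its ratio of −0.10 (−0.26 to 0.07) lay below that of the other strong sites. The 9 other members of the 10 had fold enrichments of 14.7 to 22.8 in KO and 9.93 to 15.6 in WT.

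Of these 9, the Mettl4 site at chr17:94864415-94865157 had 220 reads in KO and 150 in WT, with a ratio of 0.64 (0.33 to 0.95), and it shares 50 bases with another peak. The Pcmtd1 site at chr1:7397098-7398446 had 190 and 162, and the Zfp960 site at chr17:16951030-16951933 had 185 and 148. The Zfp97 site had 181 and 173, the Ndufa4 site at chr6:11593567-11595130 had 168 and 185, and the Acot10 site, 809 kb from that gene and in a repeat, had 163 and 135. Ndufa4 was thus the only one of the 9 with more reads in WT, and its ratio of −0.05 ran from −0.36 to 0.26. The Ogfrl1, Akr1e1 and Fam49a sites had 162 and 139, 159 and 133, and 138 and 127 reads. Annotated lncRNA starts lay close to some of these summits, at 48 bp for Mettl4, 194 bp for Zfp97, 63 bp for Pcmtd1, 129 bp for Zfp960 and 15 bp for Akr1e1.

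The most remote members ranged from weak to strong. The farthest lay 2141 kb from Celf4 with 9 reads in KO and 13 in WT, and the next 2012 kb from Ptprd with 9 and 8. The G6pd2 site at chr5:59996549-59997080, 1812 kb away, had 32 and 16, and its ratio of 1.09 had an interval of 0.18 to 2.05. The Cntnap5b site at chr1:101901752-101902988, 1805 kb away, had 109 and 100 and matches to ISRE and MEIS. The last of the 5, 1645 kb from Cntnap5a, had 12 and 17. Of the 5, the Cntnap5b site had the most reads.

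The largest ratios were taken among the 1006 pairs with a summed pileup of at least 40. The Mad2l1 site at chr6:66347153-66347866 had 31 reads in KO and 9 in WT (ratio 1.87, 0.76 to 3.13), and its window, shown above, held 4 RUNX matches and a GATA match. The Plscr5 site at chr9:91988090-91988948 had 71 and 22 (1.78, 1.07 to 2.54), and its KO peak was 859 bp wide against 252 bp in WT. The Alcam, Eci2 and Gm10295 sites had 42 and 14, 35 and 12, and 37 and 13. At the other end, the Mctp2 site at chr7:71960809-71961222 had 17 and 49 (−1.44, −2.33 to −0.62), in the lncRNA Gm36633. The Pex5l, Fzd8, Wif1 and Chd6 sites had 19 and 43, 17 and 38, 14 and 30, and 18 and 38. These 10 were picked as extremes of the ratio, so their ratios support nothing further.

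Members near genes of blood regulation were counted from 4 lists of 93 genes. The nearest coding start belonged to a listed gene for 116 members at 31 genes, with a median ratio of 0.28 over 111 pairs, where all members had 0.21. Of those pairs, 12 were at least 1.5-fold higher and 11 at least 1.5-fold lower than the median of all shared pairs, where 7.56% and 7.92% of all pairs were, and nothing is read from counts this small. The 26 stem cell transcription factors had 43 sites at 7 genes (median 0.24, 3 higher and 1 lower of 41 pairs), and the 21 myeloid regulators 32 sites at 7 genes (0.37, 3 and 3 of 30). The 21 lymphoid regulators had 17 sites at 7 genes (0.29, 3 and 1 of 17) and the 25 signalling and niche genes 24 sites at 10 genes (0.17, 3 and 6 of 23). A nearest gene is a label of position, and which gene a site acts on was not measured.

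Bcl11a, a zinc-finger repressor needed for lymphoid development and for silencing fetal globin, had the most sites of any listed gene. Its 14 sites, all downstream, lay 104 to 384 kb away and had pileups of 9 to 93 in KO and 10 to 80 in WT. Their ratios ran from −0.07 to 0.61 with a median of 0.30. The strongest, at chr11:24226548-24227326, had 93 and 80 reads, with no motif match. None of the 14 windows had a CTCF, GATA or PU.1 match, and 7 of the sites formed one of the 5 largest groups within 100 kb, in 97.0 kb.

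Klf6 and Sox4 had sites along neighbouring noncoding genes. Klf6, a zinc-finger transcription factor of early stress responses, had 10 sites with pileups of 11 to 129 in KO and 10 to 113 in WT and a median ratio of 0.32. The strongest, at chr13:5591943-5593181, lay 269 kb upstream in the lncRNA Gm35330. All 9 sites of Sox4, an HMG-box factor of progenitor cells, lay in the noncoding gene 2610307P16Rik, and the strongest, at chr13:28838218-28839715, had 82 reads in KO and 68 in WT. The weakest Sox4 sites had 9 and 10 reads in KO, against 12 and 9 in WT.

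Several other factors had 1 strong site and some weak ones. Gata3, a T-cell and stem cell factor, had 4 sites, of which that at chr2:9593824-9594608, 285 kb from the gene, had 123 reads in KO and 106 in WT, and the other 3 had 9 to 16 and 8 to 18. Jun, an AP-1 subunit, had 78 and 65 at its strongest of 4. Kit, the stem cell factor receptor, had 58 and 57 at its strongest, and 15 and 14, 12 and 20, and 12 and 19 at the other 3, with a median ratio of −0.23. Cdk6, a kinase that drives stem cells out of quiescence, had 2 sites of 64 and 67 and of 76 and 65. At these sites KO and WT were within the counting interval of the common ratio.

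Some listed genes had a site with more reads in KO. The Ikzf2 site at chr1:69513225-69514249 had 62 reads in KO and 32 in WT (1.04, 0.40 to 1.70), an interval above the common ratio of 0.17. Such an interval was found at 1.91% of all shared pairs, so nothing is read from this site alone. Ikzf2 encodes Helios, an Ikaros-family factor. One Maf site at chr8:115450888-115451249 had 41 and 24 (0.86, 0.10 to 1.65), and the median of the 6 Maf sites was 0.52; Maf is a bZIP factor of macrophages. One of 5 sites of Tgfbr2, a receptor for TGF-beta, had 26 and 13 (1.09, 0.07 to 2.17), and both this interval and that of the Maf site held the common ratio, while 2 others had more reads in WT, 14 and 19 and 25 and 35. Meis1, a homeobox factor of stem cells, had 5 sites, of which a pair shared a single WT peak of 51 reads, with 48 and 18 in KO. Runx1 had 3 weak sites of 14, 17 and 14 reads in KO and 22, 14 and 16 in WT.

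**Figure D5:**
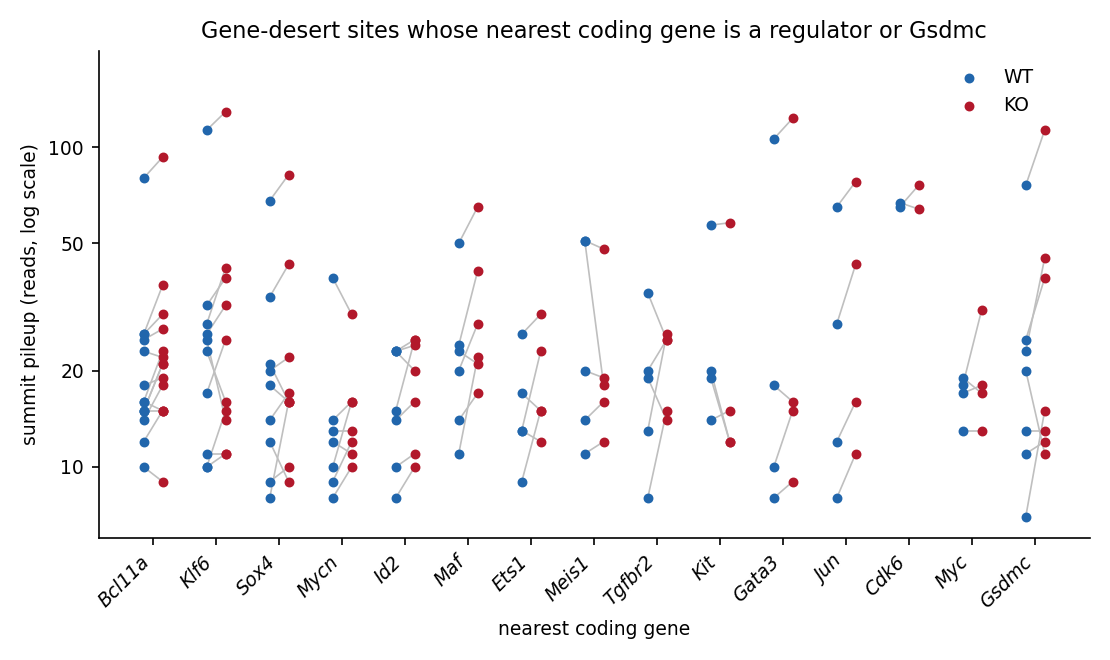
Summit pileup in reads (y axis, log scale) in WT and KO at each gene-desert site whose nearest coding gene is one of 14 listed regulators or Gsdmc (x axis), with a line joining the values of a site. Many sites lie below 30 reads; the strongest Klf6 site has 129 reads in KO and 113 in WT, and the strongest Gsdmc site 113 and 76.

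A group on chromosome 15 was added after its values were seen. The 7 sites nearest to Gsdmc lay in the lncRNA Gm41335, 1616 to 1719 kb from the start of Myc, in the interval known as the blood enhancer cluster of Myc. Their pileups, in order along the chromosome, were 13, 11, 113, 39, 45, 15 and 12 in KO and 13, 20, 76, 25, 23, 7 and 11 in WT. The site of 113 and 76 reads at chr15:63647780-63648952 had a ratio of 0.66 (0.23 to 1.10) and that of 45 and 23 at chr15:63665125-63665810 a ratio of 1.05 (0.30 to 1.85). KO had more reads at the last 5 sites and WT at 1. Ratios over background were above 0 at 66.5% of all members in pairs and at 65.6% of all shared pairs. Intervals wholly above the common ratio of 0.17, as at these sites of 0.66 and 1.05, were found at 2.96% of members and 1.91% of all pairs. The group was picked after its values were seen, so nothing is read from these counts. At the Pvt1 site at chr15:62106470-62106943, 119 kb from Myc, KO had 31 and WT 18 reads, with a ratio of 0.87 (−0.01 to 1.79).

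The group with the most members within 100 kb held 8 sites in 71.7 kb on chromosome 17, from 83957029 to 84028689, between Haao and Zfp36l2, an RNA-binding regulator of blood progenitors. Pileups were 22, 46, 30, 46, 80, 16, 16 and 17 in KO and 18, 37, 27, 30, 62, 13, 26 and 21 in WT. The first 6 were higher in KO and the last 2 in WT, with a median ratio of 0.38. Ratios were above 0 at 66.5% of all members in pairs, and nothing is read from counts this small. The next groups by number were 7 sites near Ghitm (median ratio 0.04), the 7 near Bcl11a (0.29), 6 near Arglu1 (0.18) and 6 near Atp2b1 (−0.02).

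A set of members lay in antigen receptor loci, which the rule admits because variable segments are not annotated as protein-coding genes. Lymphocytes assemble receptor genes by joining such segments at recombination signals, which consist of a heptamer (CACAGTG), a spacer and a nonamer directly past the coding end. Within 100 kb of a segment lay 25 members, 18 of them at Igh on chromosome 12, 3 at Igk, 2 at Tcrg and 2 at Tra. All 13 members whose nearest coding gene was Zfp386 belonged to the Igh set. The comparisons in this paragraph and the next were chosen after the values were seen.

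Most Igh sites sat at the recombination end of a variable segment. Of the 18, 15 lay 241 to 559 bp from the start of 15 different segments. Relative to the segment's 3′ end these 15 summits lay between −93 and 116 bp past it (median 51 bp past), 13 of them within 100 bp. A heptamer match on either strand was in 10 of the 15 windows (66.7%, 41.7 to 84.8), in 202 of all 2399 members (8.42%) and in 1702 of all shared peaks (5.87%). The 15 were picked for lying at variable segments, whose ends carry this signal. Their higher share therefore follows from the choice and supports nothing further. The 5 windows without a heptamer match all belonged to segments of the Ighv8 family. Among them, the Ighv8-8 and Ighv8-12 summits lay 116 and 112 bp past the 3′ end. A window reaches 100 bp from its summit, so these windows left out the bases directly past that end. Windows of the Ighv1-58 and Ighv1-74 sites are shown with the heptamer in capitals, read as its reverse complement because the segments are on the minus strand.
Ighv1-58 site, chr12:115312013-115312212, 53 in KO and 36 in WT: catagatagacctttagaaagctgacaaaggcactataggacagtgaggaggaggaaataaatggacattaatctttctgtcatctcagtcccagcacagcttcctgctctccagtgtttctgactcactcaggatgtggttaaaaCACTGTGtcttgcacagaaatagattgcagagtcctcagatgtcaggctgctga
Ighv1-74 site, chr12:115802541-115802740, 31 in KO and 24 in WT: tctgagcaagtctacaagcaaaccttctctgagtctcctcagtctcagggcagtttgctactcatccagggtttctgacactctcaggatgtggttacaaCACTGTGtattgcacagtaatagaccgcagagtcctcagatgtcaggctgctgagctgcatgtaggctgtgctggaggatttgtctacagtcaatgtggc
Pileups at the 18 Igh sites ran from 7 to 69 in KO (median 18) and from 8 to 56 in WT (median 14). Their median ratio was 0.39, and 12 of the 18 had a ratio above 0. Ratios were above 0 at 66.5% of all members in pairs and at 65.6% of all shared pairs, a like share. The strongest Igh site was at Ighv8-6, with 69 reads in KO and 45 in WT (0.70, 0.14 to 1.28), and Ighv1-58 had 53 and 36 (0.64, 0.01 to 1.30). At Ighv15-2 the order was the reverse, with 18 and 30. Variable segments are near copies of each other, and 7 of the 18 windows shared 50 bases with another shared peak. The promoters of Cd79a and Ms4a1 had no peak in either list.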

How the data were processed

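The labels name 4 ATAC-seq samples, 2 WT and 2 KO, and 1 deposited peak list per genotype. By their methods and the submitters' notes, the authors trimmed reads with Trim Galore, used Bowtie2 with the mm10 genome for alignment and Picard for duplicates, and called peaks with MACS2 (versions not given in the sources used here). The deposited lists give the authors' fold enrichment (a ratio), −log10 p and −log10 q per peak, and a display score made by the authors' caller, which was not used.

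Summit pileup and local background were solved from fold enrichment and −log10 p, which MACS2 derives from a Poisson distribution. A whole-number pileup matched within 0.001 for 99.99% of peaks. KO to WT ratios were log2 ratios of pileup over the median of the 1000 smallest backgrounds (1.19 reads in WT, 1.13 in KO), with no pseudocount, for one-to-one pairs. GRCm38.p6 and GENCODE M21 are of the authors' build. Motifs were searched on both strands of 200 bp windows. Python 3.11.15, numpy 2.4.6, pandas 2.3.3, scipy 1.17.1 and matplotlib 3.10.9 were used, and the steps were tested on simulated data. Members, gene lists and motifs were chosen with earlier results of these data known.

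Sites were named by rule. These were the 10 of largest summed pileup, the 5 farthest, the 5 highest and 5 lowest ratios at a summed pileup of at least 40, the 5 groups with the most members within 100 kb, 3 on each side of the 100 kb limit, and sites nearest to a listed gene; others are marked as chosen after seeing values. Alternatives were other distance limits, annotations, overlap rules, q limits, scales and windows. Some marker genes of the fixed list are not reported here. Read depth is unknown, so intervals cover counting error at the summit only.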

Additional observations from a re-analysis of the deposited data

How the results depend on the processing

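No paired analysis was possible because the data hold 1 peak list for a genotype, and for the same reason leaving out a replicate could not be run. The number of members moved from 2399 to 3929 with a limit of 50 kb, 1178 with 200 kb and 1083 when KO and WT peaks both had to reach a −log10 q of 10. Their share of shared peaks was 13.6%, 4.07% and 6.84% under those settings, 8.69% with gene 5′ ends as starts, 7.72% with every transcript start and 8.73% with summits within 100 bp. The share of gene-desert KO peaks with a WT partner was 59.3% at an overlap of 50%, 55.9% with summits within 100 bp, 66.1% with the q limit in both lists and 90.7% with it in KO only. The median ratio was 0.13 from raw pileups. Members at least 1.5-fold higher numbered 103 by fold enrichment and 79 under the q limit, and those lower numbered 41 under the q limit. Median GC was 45.5% in 400 bp windows, and 3.58% of members had a window at least 50% masked. Of 106 values recomputed, 62 stayed close to the reported value and 44 moved. A reversal was defined only as a change of sign of the median log2 ratio, and 0 were found. Counts and shares could only stay or move, so this says nothing of a reversal among them. Which side held more of the members past the fold did turn by fold enrichment, as described above. Leaving out members that share 50 bases, an alternative chosen after seeing the data, gave a median ratio of 0.21 and 8.36% of summits in repeats. The unknown depth, the lack of a list per sample and pileups mostly below 30 reads limit every single-site ratio.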

Other observations

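Further nearest genes with many sites, chosen after their values were seen, differed in the direction of their ratios. Adgrl2, an adhesion receptor gene, had the most sites of any coding gene, 20 at 183 to 967 kb, all of modest pileup (9 to 39 in KO, 8 to 39 in WT) and with a median ratio of 0.18. Mef2c, a transcription factor of lymphoid-primed progenitors, had 11 sites with a median of 0.26, and its site at chr13:83112102-83112993 had 39 reads in KO and 18 in WT (1.20, 0.36 to 2.09), while another had 9 and 20 (−1.07, −2.38 to 0.13). Zeb2, a zinc-finger repressor, had 10 sites at up to 1416 kb with a median of −0.02, the strongest with 42 reads in KO and 44 in WT. Cited2, a coactivator adaptor, had 9 sites with a median of 0.09, the strongest with 40 and 54. None of these was compared with a spread between replicates.

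Noncoding genes that hosted the most members were 2610307P16Rik with 12, and Gm41335, Lncpint and Mir99ahg with 7 each. By summed pileup, AP-1 matches were in 8.58% of members in the lowest group (13 to 24 reads) and in 13.5% in the highest (61 or more), with CTCF matches in 4.68%, 5.87%, 6.88%, 5.61% and 2.95% from the lowest group to the highest. The intervals in the end groups overlapped for AP-1 (6.45 to 11.3 and 10.7 to 16.8) and for CTCF (3.16 to 6.87 and 1.76 to 4.89).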
